A study of Mus musculus with 2 samples.

Results

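The genomic regions bound by ELF3 and NFKB2 were examined around 4 genes that are textbook targets of NF-κB: Icam1 and Vcam1, which encode adhesion molecules of the cell surface, C3, the central component of complement, and Sod2, the mitochondrial manganese superoxide dismutase. The cells were tubular epithelial cells in primary culture from the kidney of wild-type mice, all treated with TNFα and IFNγ. CUT&RUN uses an antibody to bring a nuclease to a bound protein and releases the DNA around it. It gave 1 library for ELF3 and 1 for NFKB2, both labelled as the same batch. No dose, duration or animal number is stated in the labels, and no untreated library and no IgG list were analysed here. A region was taken when it overlapped, by coordinates, a window of the gene with about 20 kb on each side. Of 68319 listed ELF3 regions 20 met this rule, and of 14217 listed NFKB2 regions 9 did. The choice of regions within the windows used positions only, not signal, but the 4 genes were chosen with earlier results of these data known. The gene itself is placed by the window, 20 kb in from each end, so distances to a gene's ends are precise to about 1 kb.

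NF-κB is a family of dimeric factors that are held inactive in the cytoplasm and enter the nucleus after stimuli such as TNFα. NFKB2 is made as the precursor p100 and processed to the subunit p52, which acts mainly with RelB in the non-canonical branch of the pathway. ELF3 is an epithelial factor of the ETS family, whose members recognise a GGAA core. In inflamed kidney tubules, ICAM-1 and VCAM-1 bind leukocyte integrins, C3 is made locally as a source of complement, and SOD2 detoxifies superoxide in mitochondria.

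The promoters are shown first because the regions at the 5′ end of each gene are described below. Each sequence holds the 250 bases before the gene's start in RefSeq, 5′ to 3′ in the direction of transcription, in build GRCm38.p6. That build is not the one of the regions, so the coordinates of promoters and regions must not be compared. Promoters of 3 of the 4 genes were matched by symbol: Icam1 (chr9:21015690-21015939, plus strand), C3 (chr17:57228137-57228386, minus strand) and Sod2 (chr17:13007589-13007838, plus strand). Capitals mark matches on either strand to a 10-letter κB consensus, to the κB-like palindrome GGAANTTCC and to the ETS sequence CCGGAA.
Icam1: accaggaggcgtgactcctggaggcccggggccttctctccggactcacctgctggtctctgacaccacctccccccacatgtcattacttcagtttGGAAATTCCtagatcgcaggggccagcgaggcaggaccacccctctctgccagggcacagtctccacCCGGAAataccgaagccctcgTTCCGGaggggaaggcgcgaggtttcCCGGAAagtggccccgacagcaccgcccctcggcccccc
C3: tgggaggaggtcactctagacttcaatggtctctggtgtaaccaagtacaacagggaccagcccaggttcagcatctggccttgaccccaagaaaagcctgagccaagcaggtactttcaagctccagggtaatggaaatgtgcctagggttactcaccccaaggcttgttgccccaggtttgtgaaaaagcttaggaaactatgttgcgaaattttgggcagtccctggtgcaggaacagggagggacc
Sod2: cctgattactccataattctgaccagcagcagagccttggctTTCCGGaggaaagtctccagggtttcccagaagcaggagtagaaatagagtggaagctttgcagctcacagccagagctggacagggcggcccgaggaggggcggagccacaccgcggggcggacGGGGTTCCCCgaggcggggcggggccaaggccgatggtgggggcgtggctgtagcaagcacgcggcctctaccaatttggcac

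The 3 promoters differed in these letters. Icam1 held GGAAATTCC from 153 to 145 bases before the start, and 0.813% of all 32851 promoters of the table hold a match to GGAANTTCC, a pattern chosen after the sequences were seen. Icam1 also held CCGGAA at 3 places, with far ends 86, 65 and 39 bases before the start, where 12.0% of promoters hold at least 1 match. Sod2 held GGGGTTCCCC, a match to the κB consensus, from 83 to 74 bases before the start (7.25% of promoters hold a match) and CCGGAA once, from 208 to 203 bases before it. The C3 sequence held none of these 3 patterns within the 250 bases. It does hold the shorter ETS core GGAA, whose share over all promoters was not counted. Looser matches to the κB consensus were not looked for. GGGAA, which overlaps the κB consensus and is present in 56.2% of promoters, occurred 2 times each in Icam1 and Sod2, and AGGAAG (29.5%) in none of the 3. These are matches of letters and do not show a site in use.

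Signal is given as fragments at the summit, the highest point of a region, recovered from the deposited fold and p-value of each region. The libraries were close in depth, with 10.1 fragments per kb of genome for ELF3 and 10.6 for NFKB2, a depth ratio of 1.04. The median ELF3 region held 22 fragments and the median NFKB2 region 16. With 1 library per antibody there is no replicate error and no test of any difference. The 95% intervals given for fragments (exact Poisson), ratios and shares (exact binomial) cover counting error only. Strength is also given as a percentile, the share of the regions of the same list with an equal or lower −log10 q, the significance that the authors' caller assigned to the region. Coordinates of regions are as deposited, 1-based, on sequence names that belong to GRCm39.

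All 4 windows held regions of both factors. ELF3 had 4 regions at Icam1, 5 at Vcam1, 7 at C3 and 4 at Sod2. NFKB2 had 3 at Icam1, 1 at Vcam1, 2 at C3 and 3 at Sod2. Of the 3 at Icam1, 1 had a −log10 q of 5 or more, so that count rests on weak regions. For comparison, autosomes and X were tiled with windows of each gene's length, whether or not they hold a gene. At least as many ELF3 regions were found in 12.8% of windows as long as that of Icam1, 9.1% for Vcam1, 3.77% for C3 and 11.6% for Sod2. At least as many NFKB2 regions were found in 2.2% of windows for Icam1, 20.5% for Vcam1, 7.72% for C3 and 2.0% for Sod2. Between 18.2% and 21.6% of windows of these lengths held any NFKB2 region. Windows around genes may hold more regions than such tiles, which was not tested.

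**Figure D1:**
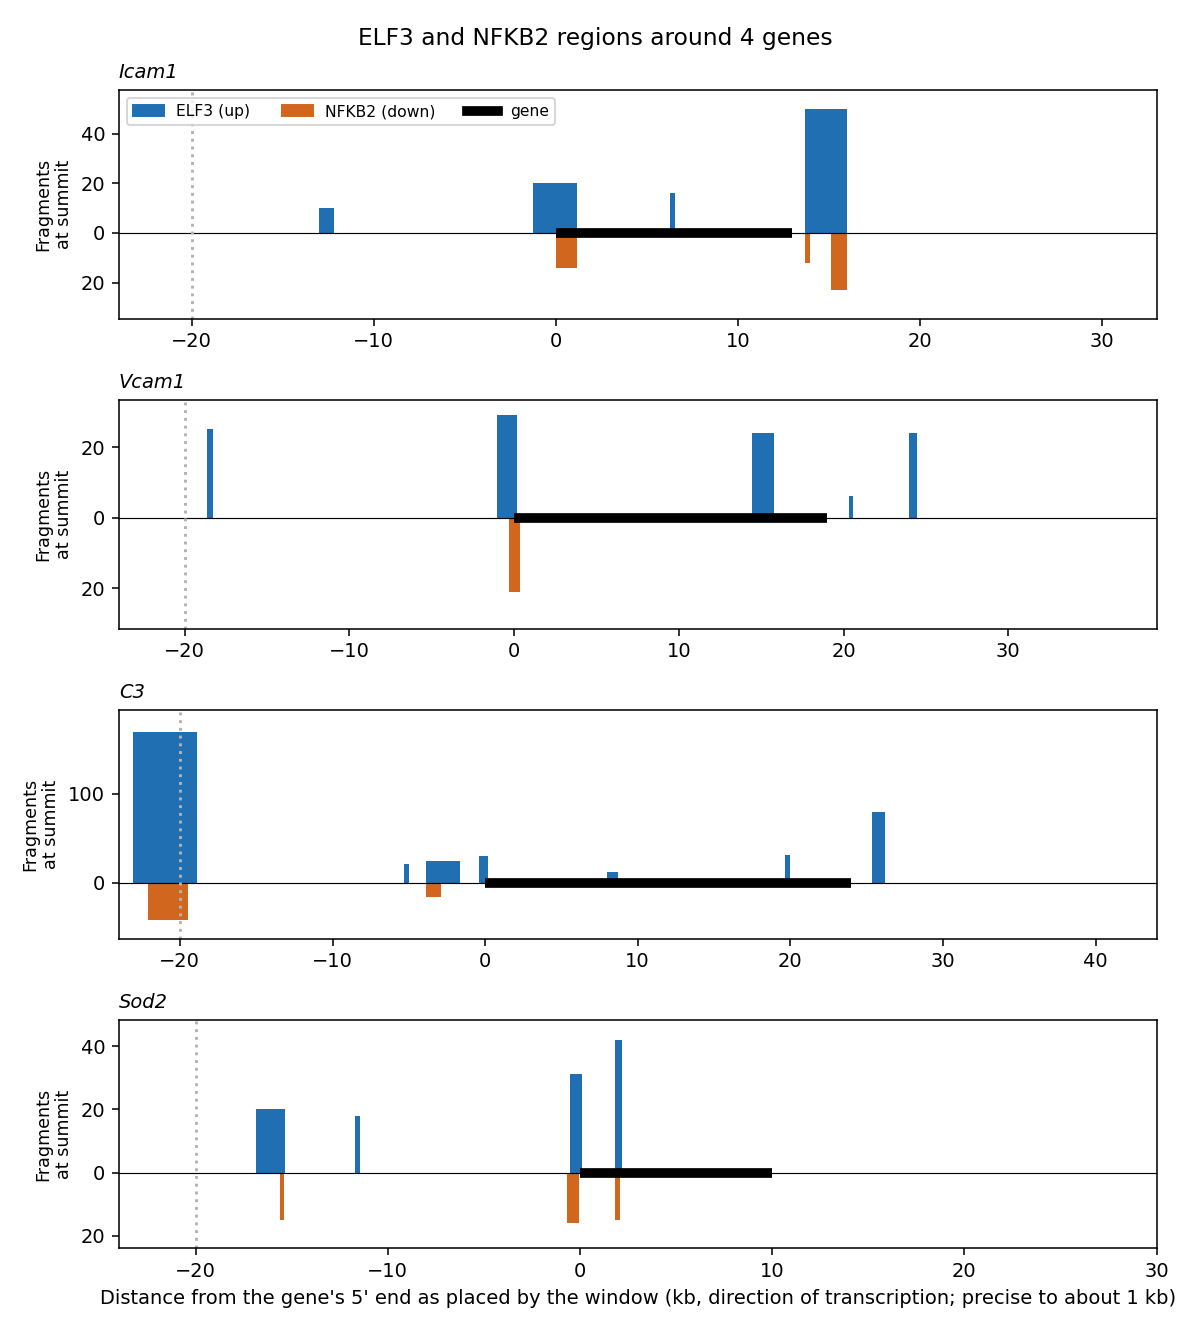
Regions of ELF3 (blue, up) and NFKB2 (orange, down) along the 4 windows, in kb from the gene's 5′ end in the direction of transcription; bar height is fragments at the summit (the scale differs between panels), bar width the length of the region, the thick black line the gene and the dotted line the window's upstream end. ELF3 sits at the 5′ end of all 4 genes and NFKB2 at that of Icam1, Vcam1 and Sod2, while at C3 the nearest NFKB2 region lies 3.8 kb upstream.

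At the 5′ end, within 1 kb of the edge of the gene, ELF3 had a summit at all 4 genes and NFKB2 at 3. How often the 5′ ends of other genes hold such summits was not counted. These numbers are therefore not shown to be particular to the 4 genes. Icam1 had 20 ELF3 fragments there (12.2 to 30.9), Vcam1 29 (19.4 to 41.6), C3 30 (20.2 to 42.8) and Sod2 31 (21.1 to 44.0). NFKB2 had 14 fragments at Icam1 (7.65 to 23.5), 21 at Vcam1 (13.0 to 32.1) and 16 at Sod2 (9.15 to 26.0). The ELF3 intervals of the 4 genes overlapped, as did the NFKB2 intervals of the 3 genes, so neither order was resolved at this depth. C3 had no listed NFKB2 region at its 5′ end. The lists omit weak signal: no NFKB2 region at the lowest background of its list had fewer than 8 fragments, so a weaker signal at C3 would not appear. The limit is higher where background is raised, and at the ELF3 summit at the 5′ end of C3 it was 1.62 times the lowest level.

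Icam1, the receptor by which leukocytes adhere through LFA-1, had its 5′ end inside a wide ELF3 region on chromosome 9 at 20925751 to 20928149, of 2399 bp. The NFKB2 region there, 20927020 to 20928145, lay wholly within it. Their summits were 194 bp apart. The NFKB2 region was among the weak ones of its list, with a −log10 q of 2.53 at percentile 9.3. The caller's local background at its summit was 2.29 times the lowest level of that list. The ELF3 region had its summit at the lowest background and stood at percentile 49.2.

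The strongest binding in the Icam1 window lay past the 3′ end of the gene. The ELF3 region at 20940705 to 20943018 had 50 fragments (37.1 to 65.9) and stood at percentile 88.3. It held 2 NFKB2 regions. The larger, 20942105 to 20942997, had 23 fragments (14.6 to 34.5), a summit 28 bp from that of ELF3 and percentile 82.5. The smaller, 20940706 to 20940928, had 12 fragments (6.2 to 21.0) with a summit 1297 bp away, so both ends of the ELF3 region carried NFKB2. An ELF3 region with 2 or more NFKB2 regions is uncommon, at 0.479% of the ELF3 list. Icam4 and then Icam5, which encode further adhesion molecules of the same family, follow Icam1 on this side in the same orientation, and to which of the 3 genes the region belongs was not tested. The other ELF3 regions of the window had no NFKB2 region: 1 within the gene at 20933250 to 20933523 with 16 fragments, and 1 upstream, 12.8 kb from the 5′ end, with 10.

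Vcam1, the ligand of the integrin VLA-4, had both factors at its 5′ end alone. Vcam1 is transcribed from the minus strand, as general knowledge and not from the tables used. On chromosome 3, the ELF3 region at 115922836 to 115924059 and the NFKB2 region at 115922633 to 115923322 had summits 9 bp apart. Over the whole list, 17.5% of shared NFKB2 regions have an ELF3 summit within 10 bp. The ELF3 region stood at percentile 66.8 and the NFKB2 region at 74.8, the highest percentile of the 3 NFKB2 regions at 5′ ends. The remaining 4 ELF3 regions had no NFKB2 region. They were found 18.4 kb upstream (25 fragments), inside the gene 14.6 kb from its 5′ end (24), and past the 3′ end with 24 and 6 fragments. The last of these, 115902404 to 115902688, is at percentile 1.42, near the listing limit of the authors' caller. Except for it, the ELF3 regions of Vcam1 were of even strength, from 24 to 29 fragments, so the 5′ end did not stand out in ELF3 signal.

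C3, the protein on which all complement pathways converge, showed the widest spread of signal. Its 7 ELF3 regions ranged from 12 to 169 fragments with a median of 30. The ELF3 region at the 5′ end, on chromosome 17 at 57534808 to 57535390, had 30 fragments at a local background 1.62 times the lowest level, and no NFKB2 region. The nearest NFKB2 region was 3.8 kb upstream, 57537919 to 57538851, with 16 fragments (9.15 to 26.0). It lay inside an ELF3 region at 57536618 to 57538888 that had 24 fragments (15.4 to 35.7), with summits 66 bp apart. A further ELF3 region 5.2 kb upstream had 21 fragments and a local background 2.43 times the lowest level, and no NFKB2 region.

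The 2 ELF3 regions of most fragments in the C3 window differed in NFKB2. At the window's upstream end, 57553858 to 57558072, ELF3 had 169 fragments (144 to 196), which ranked 75 in the whole list. NFKB2 had 42 fragments there (30.3 to 56.8), at 57554473 to 57557122, its strongest region in the 4 windows, with summits 46 bp apart. This ELF3 region runs 3072 bp past the window's end. Trip10 and Gpr108 are the next genes on this side of C3, and whether the region belongs to one of them was not tested. Past the 3′ end of C3, at 57508773 to 57509665, ELF3 had 79 fragments (62.5 to 98.5) at percentile 97.2, with no NFKB2 region. Tnfsf14 is the next gene on that side. Of all ELF3 regions at the lowest background with 79 or more fragments, 73.6% overlap an NFKB2 region, and this one does not. Its own count is the lower limit of that set, and the other regions of the set have as many fragments or more. In the whole list, ELF3 regions with NFKB2 have more fragments (median 43) than those without (19). The share among regions of like strength was not computed. The remaining 2 ELF3 regions lay within the gene with 31 and 12 fragments, without NFKB2.

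Sod2, which protects mitochondria from superoxide, had NFKB2 at 3 of the 4 ELF3 regions of its window. Within the gene, 2.0 kb from the 5′ end, ELF3 had 42 fragments (30.3 to 56.8) on chromosome 17 at 13228831 to 13229157, the strongest ELF3 region of this window. NFKB2 had 15 fragments (8.4 to 24.7) at 13228882 to 13229049, wholly inside it, and the summits were 8 bp apart. A cytokine-responsive enhancer inside the Sod2 gene is known from other work, and whether it is this region was not tested. Both regions were narrow, at 327 and 168 bp.

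At the 5′ end of Sod2, ELF3 covered 13226491 to 13227079 and NFKB2 13226330 to 13226943, with summits 72 bp apart. The local background that the authors' caller set at these summits was 2.43 times the lowest level of the ELF3 list and 1.53 times that of NFKB2. Such raised values can rest on a few control fragments. The third pair lay 15.6 kb upstream, where NFKB2 had 15 fragments at 13211401 to 13211587 and ELF3 20 at 13210118 to 13211621, with summits 298 bp apart. Wtap, on the opposite strand, is the next gene on this side, and whether the pair belongs to it was not tested. The 3 NFKB2 regions of the Sod2 window were alike in signal, at 15, 16 and 15 fragments, whereas ELF3 ranged from 20 to 42 at the same places. Their −log10 q lay between 6.03 and 7.47, so none of the 3 would pass a limit of 10. The median −log10 q of the whole NFKB2 list was also below 10, so most regions of that list would not pass either. The only ELF3 region without NFKB2 was a narrow one of 169 bp, 11.5 kb upstream, with 18 fragments. No region of either factor was listed further into the gene than the one at 2.0 kb, or in the downstream flank.

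**Figure D2:**
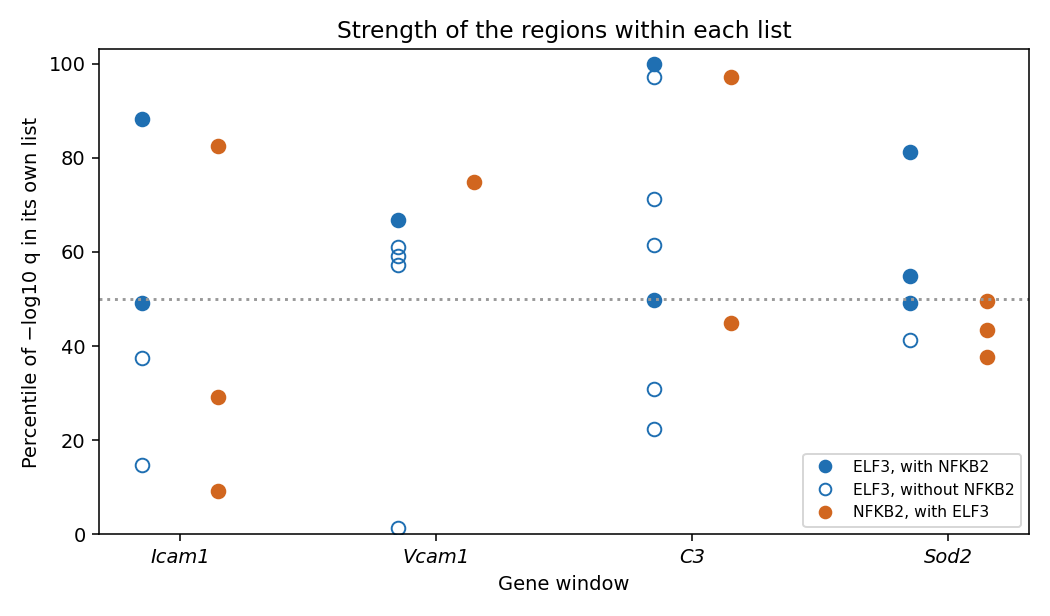
Percentile of −log10 q of each of the 20 ELF3 and 9 NFKB2 regions within its own list, by gene; filled points overlap a region of the other factor and open points do not, and the dotted line is the middle of the list. Regions are spread from near the bottom (1.42) to near the top (99.9), and all 3 NFKB2 regions of the Sod2 window lie below the middle, at 49.6, 37.7 and 43.4.

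Over the 4 windows, 8 of the 20 ELF3 regions overlapped an NFKB2 region by 1 bp or more (40%, 19.1 to 63.9), against 19.7% of the whole ELF3 list. The interval reached down to about that level. By gene, the shared ELF3 regions were 2 of 4 at Icam1, 1 of 5 at Vcam1, 2 of 7 at C3 and 3 of 4 at Sod2. The 8 shared ELF3 regions had a median of 30 fragments and a width of 1887.5 bp. The 12 without NFKB2 had a median of 22.5 fragments and a width of 412.5 bp, ranging up to 79 fragments and 1385 bp. Over the whole list the medians were 43 fragments and 909 bp with NFKB2, and 19 fragments and 345 bp without. In the other direction all 9 NFKB2 regions overlapped ELF3 (lower limit 66.4%), which is close to the 96.8% of the whole NFKB2 list and therefore says nothing particular to these genes. The NFKB2 regions had a median of 16 fragments, equal to that of the NFKB2 list.

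**Figure D3:**
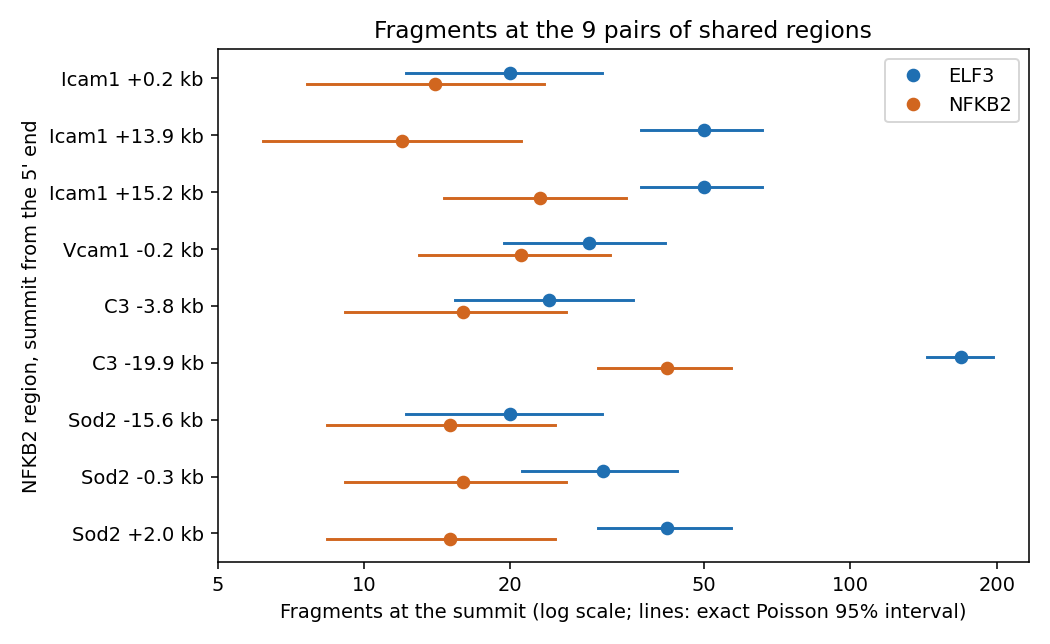
Fragments at the summit of ELF3 (blue) and NFKB2 (orange) in the 9 pairs of overlapping regions, with exact Poisson 95% intervals, on a log axis; each pair is named by its gene and the distance of the NFKB2 summit from the 5′ end. ELF3 is higher in every pair, from 20 to 169 fragments against 12 to 42, and the intervals of the 2 factors overlap in 5 of the 9 pairs.

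In all 9 pairs the ELF3 count was the higher one. After division by the depth ratio, the NFKB2 over ELF3 ratio ranged from 0.230 to 0.718 with a median of 0.494. The median over all 13769 shared pairs was 0.388 (quartiles 0.272 and 0.561). NFKB2 was more than 2-fold lower in 5 of the 9 pairs, against 68.4% of all pairs, and more than 2-fold higher in none, against 0.552%. NFKB2 exceeds ELF3 in 5.99% of all pairs, so its absence here is what most pairs show.

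The pairs fell on both sides of the typical ratio. The highest ratios were 0.718 (0.342 to 1.48) upstream of Sod2, 0.693 (0.376 to 1.26) at the 5′ end of Vcam1, 0.670 (0.313 to 1.40) at the 5′ end of Icam1 and 0.638 (0.317 to 1.25) upstream of C3. All 4 intervals include 1, so a difference in fragments between the libraries was not detectable there at this depth. The ratios compare different antibodies with 1 library each and are adjusted for depth only. How well each antibody recovers its factor was not measured, so a ratio of 1 does not show equal binding. By fragments, these pairs lie above 80.8 to 85.5% of all shared pairs. The place of Icam1 among them depends on the measure: with the deposited folds, which set each summit against its local background, the ratio at its 5′ end was 0.384. The 5′ end of Sod2 had a ratio of 0.494 (0.252 to 0.932), or 0.681 by the deposited folds. The lowest ratios were 0.230 (0.111 to 0.438) and 0.440 (0.257 to 0.735) at the region past the 3′ end of Icam1, 0.238 (0.166 to 0.335) at the upstream end of the C3 window and 0.342 (0.176 to 0.629) within Sod2. These 4 belong to the 3 ELF3 regions of most fragments among the 8 shared ones, and a high ELF3 count lowers the ratio by construction. Both pairs past the 3′ end of Icam1 share 1 ELF3 region and are not independent.

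**Figure D4:**
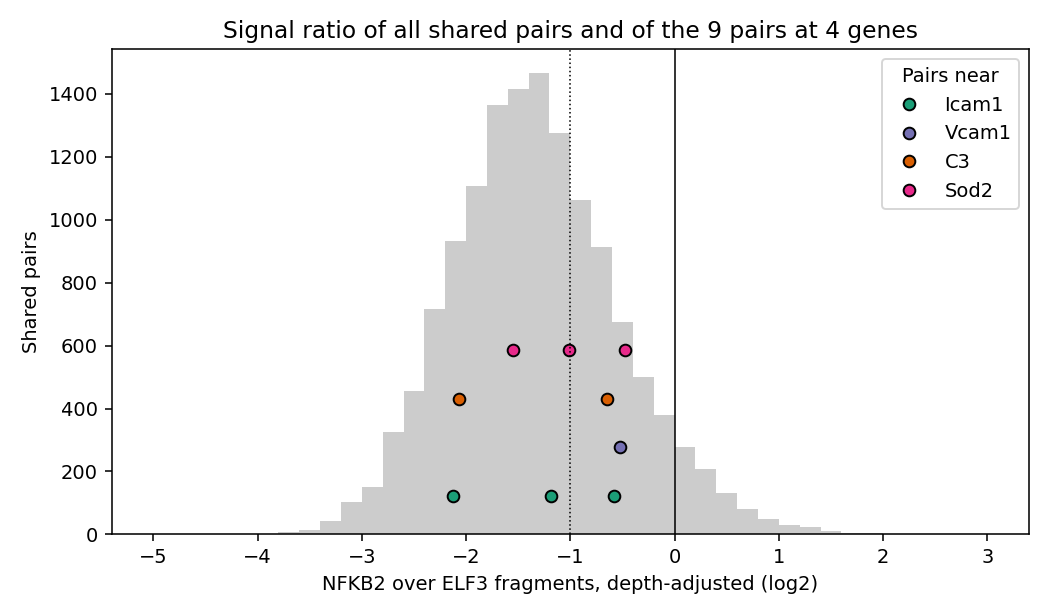
Histogram of the depth-adjusted NFKB2 over ELF3 ratio of all 13769 shared pairs (grey, log2 axis), with the 9 pairs as points by gene, set at arbitrary heights; the solid line marks equal signal and the dotted line a 2-fold lower NFKB2. All 9 points lie left of equal signal, and 5 lie left of the dotted line, where 68.4% of all pairs lie.

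Summits of both factors were within 100 bp of each other in 6 of the 9 pairs, against 75.6% of all shared NFKB2 regions, and within 10 bp in 2. The closest were those within Sod2 (8 bp) and at the 5′ end of Vcam1 (9 bp). The median distance was 66 bp, against 41 bp over all shared NFKB2 regions. The 3 wider separations were the 5′ end of Icam1, the smaller region past its 3′ end and the pair upstream of Sod2. Local background was at the lowest level in 12 of the 20 ELF3 and 4 of the 9 NFKB2 regions. Over the whole lists, 70.8% of ELF3 and 70.3% of NFKB2 regions were at that level. The highest values of local background in the windows were 2.43 and 2.29 times the lowest level. Where the caller's background differed between the 2 summits of a pair, ratios of the deposited folds differed most from ratios of fragments, as given for the 5′ ends of Icam1 and Sod2. This is not a measure of background in the ELF3 and NFKB2 libraries themselves. At the upstream end of the C3 window, where both summits were at the lowest background, the ratio was 0.235 by folds and 0.238 by fragments.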

How the data were processed

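CUT&RUN region lists of 1 ELF3 and 1 NFKB2 library were used, each library its own group by its label. The authors called regions with MACS2, per the submitters' processing notes; the sources used here give no version, settings, aligner or control. For each region the deposited lists hold a score (10 times −log10 q, cut to a whole number), a fold (summit signal over local background, both plus 1), and −log10 p and −log10 q at the summit, all computed by the authors' caller. The notes name mm10, but the files hold sequence names of GRCm39, so no coordinates were joined to the RefSeq tables of GRCm38.p6. These gave promoter sequences, gene order and gene lengths, which differ from the windows less 40 kb by 125 to 669 bp.

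Fragments and local background were recovered from fold and −log10 p under MACS2's Poisson score, with −log10 p matched within 0.01 (scaled up above 100), for 100% of regions to the digits given. A fragment was worth 1 in the ELF3 and 0.9641 in the NFKB2 list. The lowest background, the floor, was 1.22 and 1.36 fragments. A control fragment, inferred from the same values, was worth 0.993 and 1.00, so raised background can rest on a few control fragments. Depths rest on this model. Each NFKB2 region was paired with the overlapping ELF3 region of most fragments. No p-value was computed. All regions of the windows are accounted for; every NFKB2 region, each ELF3 region overlapping one and the strongest ELF3 region of each window were to be given by position, and other positions were chosen after their values were seen. Members and lists were chosen with earlier results of these data known. Other genes of the pathway were not analysed here. Scripts used Python 3.11.15, numpy 2.4.6, scipy 1.17.1 and pandas 2.3.3. Recovery of fragments (with the value of a fragment given), overlaps and window counts were tested on simulated data. The estimates of the value of a fragment, the floor and the depth were not.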

Additional observations from a re-analysis of the deposited data

How the results depend on the processing

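Of the numbers of regions in the windows, 20 for ELF3 and 9 for NFKB2, that of NFKB2 moved by more than 1.5 times with 3 settings. That of ELF3 did so too, except at −log10 q of 10 or more. These settings keep fewer regions by construction. The gene alone without flanks held 9 ELF3 and 3 NFKB2 regions. Regions at the lowest local background numbered 12 and 4, a level held by 70.8% of the whole ELF3 and 70.3% of the whole NFKB2 list. A −log10 q of 10 or more left 16 ELF3 and 3 NFKB2 regions, none of them at Sod2 for NFKB2, and at −log10 q of 5 or more the NFKB2 count of Icam1 fell from 3 to 1. Most regions of the whole NFKB2 list also had a −log10 q below 10. The share of ELF3 regions with NFKB2, 40%, was 18.8% at −log10 q of 10 or more in both lists, where the share of the whole ELF3 list fell from 19.7% to 11.5%. The share of NFKB2 regions on ELF3, 100%, was 44.4% with the ELF3 list shortened to 14217 regions, against 53.4% of the whole NFKB2 list. The other 23 of 30 summary values stayed within their limits, as did 64 of 84 values for single genes or pairs, and no ratio changed its direction. Leaving out regions that reach past a window's end and taking the coverage of a base as depth (ratio 1.11) were chosen after the data were seen. Without the former, 19 ELF3 and 8 NFKB2 regions remained and the median NFKB2 over ELF3 ratio was 0.566. No paired analysis was possible because there is 1 library per antibody.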
